A study of Homo sapiens with 6 samples.

Results

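Replication-dependent histone genes code for the histones that package new DNA in S phase, and 68 of the 62710 genes in the expression table belong to them. The rule for members uses names and no measured value. It takes the genes whose Ensembl ID is paired with a symbol of the families H1-1 to H1-5, H2AC, H2BC, H3C or H4C followed by a number. They comprised 5 H1, 17 H2A, 18 H2B, 13 H3 and 15 H4 genes. RNA was sequenced from HT1080, an established human fibrosarcoma cell line, in 6 libraries. The untreated group had 3 libraries and received no interferon, and the IFNβ group had 3 libraries from cells given 20 ng/mL human IFNβ for 24 h. No further genotype or agent distinguished the groups, and the labels number the libraries of a group without saying whether they came from separate cultures. The study's methods state for its in vitro work in general that biological replicates were independent, and not for these libraries in particular, so the p-values measure the spread between these libraries, part of which may be technical. The study's own RNA sequencing methods name the mouse protein, whereas the labels name the human one.

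Histones H2A, H2B, H3 and H4 form the nucleosome core, and H1, the linker histone, binds where the DNA enters and leaves it. The replication-dependent genes stand in clusters, have no introns in their classical form, and are switched on as DNA replication starts, through NPAT at histone locus bodies. Their mRNAs end in a conserved stem-loop bound by SLBP in place of a poly(A) tail, and they are degraded when replication stops. Some of these genes can also give a longer mRNA that runs past the stem-loop and ends in a poly(A) tail, which is described for cells that leave the cell cycle or differentiate. Replacement histones, by contrast, are mostly made from polyadenylated mRNA and also outside S phase. The libraries were enriched for mRNA, and where that enrichment uses the poly(A) tail, mRNA with a stem-loop end is captured poorly. The levels below are therefore those of the RNA that the libraries held, and reads ending at the stem-loop cannot be told apart here from reads of the longer form. In such bulk RNA, a change in the share of cells in S phase and a change in histone mRNA per cell cannot be told apart either.

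The stem-loop that ends these mRNAs was read from the transcripts of GENCODE release 29 (GRCh38) and is shown with its 4-base loop in capitals, as DNA, 5′ to 3′. A search with a fixed pattern found it in 29 of the 64 members that this release holds under the same ID. Many of the transcript models stop at the coding sequence, but why members had no match was not tested.
The form in 15 members, all H2A, H2B or H3 genes: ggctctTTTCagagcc
The form in 5 members, all H4 genes: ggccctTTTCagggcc
The form in 4 members, H2BC4, H2BC5, H2BC7 and H3C8: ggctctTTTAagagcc
The form in 3 members, H4C9, H4C14 and H4C15: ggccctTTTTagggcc
The form of H2AC11: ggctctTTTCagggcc
The form of H3C6: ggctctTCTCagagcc
The models of many members go on beyond this element. In the longest release 29 transcript with a stem-loop, 390 bases followed it in H2AC25, 1128 in H2AC6, 1655 in H4C8 and 769 in H3C10, which rose, and 1761 in H2AC11, which fell. After the loop of H2BC5 and H2AC8, which rose, 39 and 51 bases followed, and 39 after that of H2AC13, which fell. Shorter models exist for some members, and for H4C8 one ends 18 bases after the stem-loop.

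The values are FPKM, fragments scaled by the length of the gene and by the fragments of the library, as computed by the authors. The number of fragments behind the libraries lay between 22848104 and 32915500, and 3 fragments of a gene of 1 kb correspond to between 0.0911 and 0.131 FPKM. Each member was tested with limma on log2(FPKM + 0.1) together with all genes whose mean was at least 0.1 FPKM, and Benjamini-Hochberg adjusted p-values under 0.05 over all 20716 of them were taken as called. Fold changes below are on that log2 scale, IFNβ over untreated, and they understate the change of genes with low values. A DEG is a called gene with a log2 fold change of at least 1 in size. The mesenchymal markers VIM, FN1, CD44 and ENG were high in all libraries, at 319.9 FPKM or more for VIM, NT5E was at or under 0.106 FPKM in untreated and 0.695 to 0.954 FPKM in IFNβ libraries, and the epithelial and leukocyte markers EPCAM, CDH1, PTPRC and CD3E were under 0.06 FPKM throughout. PECAM1, an endothelial marker, lay between 0.1884 and 0.3265 FPKM in all libraries. IFIT1, a classical interferon-stimulated gene, went from 0.873 to 0.942 FPKM in untreated to 408.9 to 414.9 FPKM in IFNβ-treated libraries.

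Of the 68 members, 15 were listed at 0 in all libraries, 15 others lay under the filter with at most 4 fragments in any library, and 38 were tested. After IFNβ 12 of the 38 rose and 2 fell, where 15.2% of all genes tested were called higher and 17.5% were called lower. The same shares stand beside the counts of calls given below for types, clusters and lists. The histone genes that rose were H2AC25, H2BC26, H4C8, H2BC4, H2AC8, H2AC6, H1-2, H2BC11, H2BC5, H2BC12, H4C16 and H3C10, and those that fell were H2AC11 and H2AC13. There were 6 DEGs, all higher (H2AC25, H2BC26, H4C8, H2BC4, H2AC8 and H2AC6), beside 3.49% of all genes tested as higher and 0.739% as lower DEGs. With a pseudocount of 1 there was 1 higher DEG, H2AC25. No member was a lower DEG by limma, 1 (H3C2) would be at an unadjusted p under 0.05, none was by limma-voom, and 2 (H3C2 and H4C2) were by limma without untreated library 3. H4C2 passed the filter through its untreated values, with 2, 5 and 0 fragments in untreated and 1, 0 and 0 in IFNβ libraries. The library left out was its untreated one at 0, so that call carries no weight. The fold change was above 0 for 30 of the 38, beside 10361 of the 20716 genes tested. The members had a median of 0.51 and a range from -1.08 to 1.51, while the median of all genes tested was 0.0. With a pseudocount of 1 the members' median was 0.20, and among members averaging 1 FPKM or more it was 0.83. The IFNβ libraries lay entirely above the untreated ones for 15 members and entirely below for 3, beside 22.3% and 24.3% of all genes tested. Calls were made where there were fragments to count: of the 17 tested members that averaged 20 fragments or more, 11 were called higher and 2 lower, beside 19.5% and 23.9% of all genes with that many fragments, and of the 21 below it H2AC8 was the one called.

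**Figure D1:**
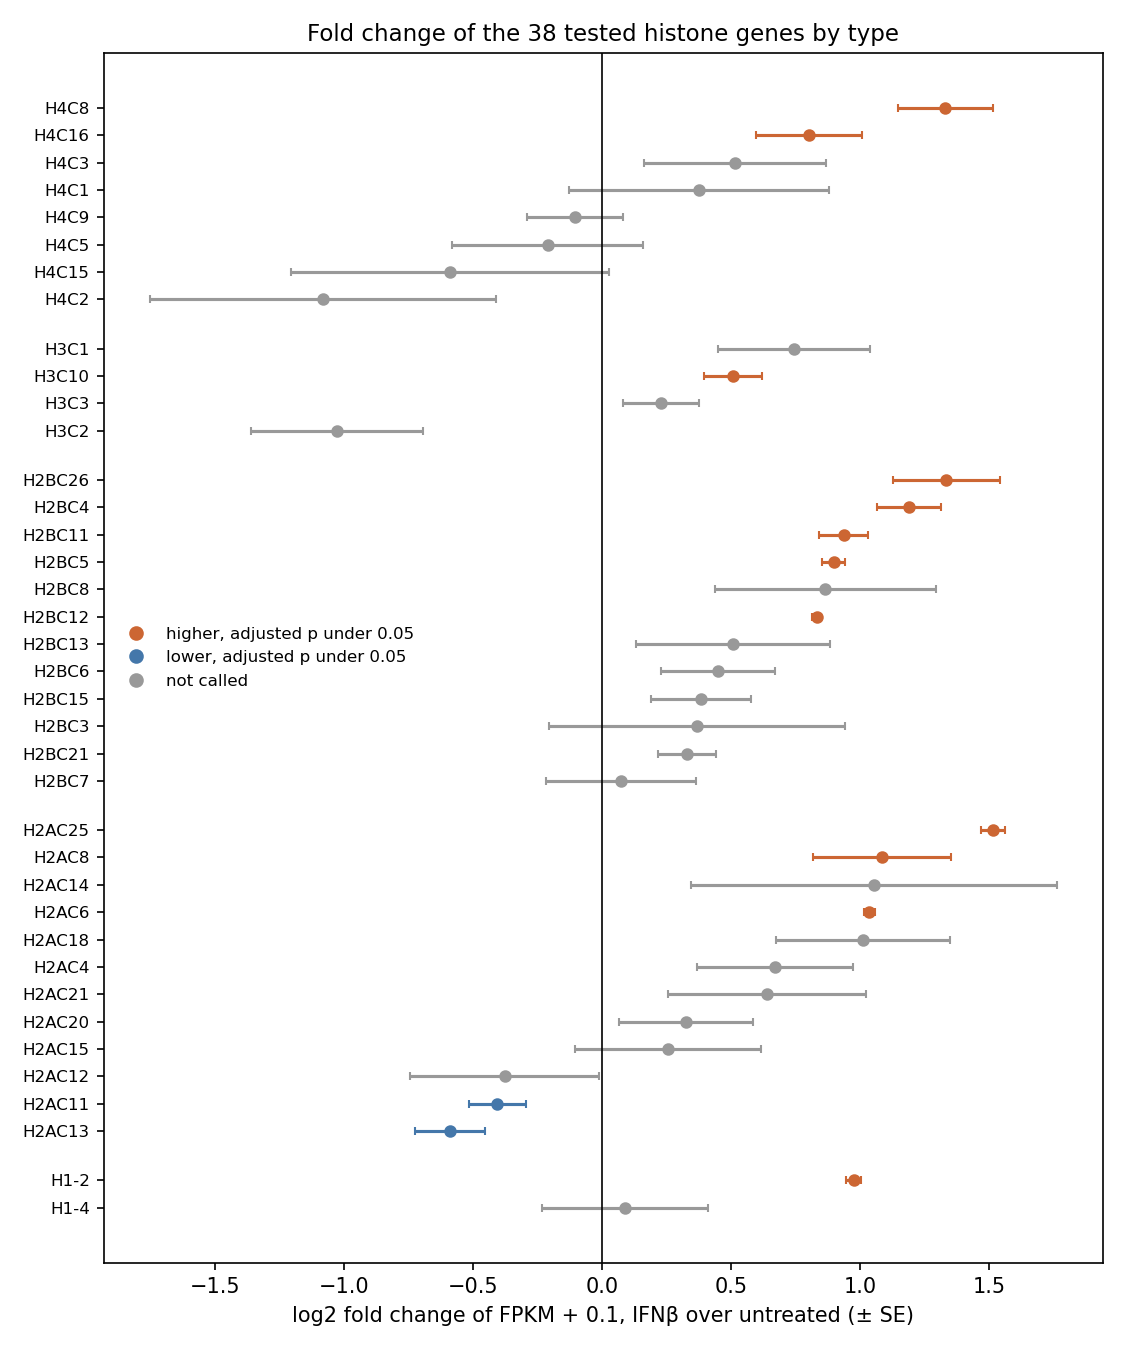
Log2 fold change of FPKM + 0.1 (x axis, IFNβ over untreated, bars are the limma standard error) for the 38 tested replication-dependent histone genes (y axis), grouped by histone type. Orange points are called higher, blue points lower and grey points not called. All 12 tested H2B genes lie to the right of 0, and the 2 blue points are H2A genes.

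The RNA of these genes was concentrated in few members. H2BC12 alone held 58.4% of the summed FPKM of the members in untreated cells and 57.0% after IFNβ, followed by H1-2 with 16.3% and 17.6% and H2AC6 with 6.45% and 7.28%. The 6 highest members, which also include H2AC25, H2BC5 and H2BC11, held 88.8% and 91.7%. FPKM are per length of the gene model that the authors used, which for some members runs far past the coding sequence, so the order of levels between members depends on those models. The untreated libraries had summed FPKM of 258.2, 258.6 and 256.2, and the IFNβ ones 462.3, 476.0 and 471.6. All 3 treated sums were higher than every untreated one, 469.9 ± 6.99 (SD, n = 3) against 257.7 ± 1.27 (SD, n = 3), a ratio of 1.82. With H2BC12 left out the ratio was 1.89, from 107.1 ± 1.89 to 202.1 ± 3.84 (SD, n = 3 each). With 3 libraries a group, an exact permutation test of such a sum cannot give a two-sided p below 0.10, so none is given.

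Among the linker histones, H1-2 had 41.5, 42.8 and 41.4 FPKM in untreated and 80.1, 82.0 and 85.5 FPKM in IFNβ-treated libraries. The groups were far apart relative to their spread, with a log2 fold change of 0.98 ± 0.03 (SE, limma adjusted p = 2.7e-06). H1-2 was 1 of 2 tested H1 genes. The other, H1-4, had 0.834, 0.514 and 0.309 FPKM untreated and 0.495, 0.712 and 0.484 FPKM after IFNβ, which overlap (0.09 ± 0.32, limma adjusted p = 0.87). H1-3 and H1-5 were listed at 0 in all libraries, and H1-1, under the filter, had 2 fragments in untreated library 1 and 0 in every other library of both groups.

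Of the 12 tested H2A genes, 3 rose and 2 fell, beside 15.2% and 17.5% of all genes tested. The median fold change was 0.66 (0.32 among those averaging 1 FPKM or more). H2AC25, the H2A gene of the small cluster at chr1:228457364-228458558 (GRCh38.p14), had the largest fold change of all members on this scale, while H2BC26, its partner, was larger with a pseudocount of 0.01 (1.60 against 1.52), with limma-voom (1.67 against 1.52) and as a plain ratio of means (3.07 against 2.88). Its FPKM were 8.80, 9.49 and 8.74 in untreated and 25.1, 27.2 and 25.5 in IFNβ-treated libraries, a log2 fold change of 1.51 ± 0.05 (SE, limma adjusted p = 3.0e-06). H2AC6, at chr6:26124172-26124690, had the highest level of the type, with 17.1, 16.5 and 16.3 FPKM untreated and 34.1, 34.0 and 34.4 FPKM after IFNβ. The treated libraries differed from each other by less than 1 FPKM and were all above the untreated ones (1.04 ± 0.02, limma adjusted p = 6.8e-07). H2AC8 had 0.762, 0.978 and 0.646 FPKM untreated and 1.19, 2.40 and 1.94 FPKM after IFNβ. It is a thin call, on 19.0 fragments per library on average (1.08 ± 0.27, limma adjusted p = 0.022), and it was lost without untreated library 1 (1.07, adjusted p = 0.061), untreated library 3 (0.96, 0.071), IFNβ library 2 (0.88, 0.062) or IFNβ library 3 (1.02, 0.073).

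The members that fell were both H2A genes, 2 of the 12 tested, which is near the 17.5% of all genes called lower. H2AC13 had 2.74, 2.31 and 2.15 FPKM untreated and 1.31, 1.78 and 1.61 FPKM after IFNβ, without overlap between the groups (-0.59 ± 0.14, limma adjusted p = 0.018). Its transcript shares 51.7% of its stretches of 150 bases, the length of a read, with that of H2AC14, so reads may have been split between these genes. H2AC14 itself had 0.475 ± 0.346 FPKM untreated and 1.04 ± 0.626 FPKM after IFNβ (SD, n = 3 each) and was not called. H2AC11 had 3.11, 2.87 and 3.45 FPKM untreated and 2.44, 2.03 and 2.60 FPKM after IFNβ (-0.41 ± 0.11, limma adjusted p = 0.032). This call was lost without untreated library 1 (-0.41, adjusted p = 0.075), untreated library 3 (-0.34, 0.094), IFNβ library 1 (-0.43, 0.067) or IFNβ library 2 (-0.31, 0.065), and both falls were lost with limma-voom on recovered fragments.

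Among H2B genes, 5 of the 12 tested rose, the fold change was above 0 in all 12, and the median was 0.67 (0.40 without IFNβ library 3). H2BC12, whose gene spans chr6:27138293-27146858 in RefSeq, had 149, 151 and 151 FPKM untreated and 265, 272 and 267 FPKM after IFNβ. With the smallest limma standard error of the tested members it gave a log2 fold change of 0.83 ± 0.02 (SE, limma adjusted p = 5.6e-07). H4C9 lies on the opposite strand inside that span, and whether the counting used strand is not given in the sources used here. H2BC5 had 6.71, 6.58 and 6.74 FPKM untreated and 12.5, 11.9 and 13.3 FPKM after IFNβ (0.90 ± 0.04, limma adjusted p = 3.0e-05). H2BC11 had 4.43, 4.45 and 3.48 FPKM untreated and 7.82, 7.998 and 7.974 FPKM after IFNβ (0.94 ± 0.10, limma adjusted p = 6.1e-04). H2BC4 had 3.21, 2.56 and 2.44 FPKM untreated and 6.65, 6.87 and 5.55 FPKM after IFNβ (1.19 ± 0.12, limma adjusted p = 6.9e-04). In H2BC5, H2BC11 and H2BC4, too, every treated library was above every untreated one. H2BC26, the partner of H2AC25 on chromosome 1, was far lower in level, with 0.297, 0.317 and 0.188 FPKM untreated and 0.974, 0.784 and 0.706 FPKM after IFNβ (1.33 ± 0.21, limma adjusted p = 0.0035). H2BC21 had 2.28, 2.56 and 2.31 FPKM untreated and 2.54, 3.26 and 3.31 FPKM after IFNβ, groups that overlap, and was not called (0.33 ± 0.11, limma adjusted p = 0.069). It was called without IFNβ library 1 (0.45, adjusted p = 0.0091).

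**Figure D2:**
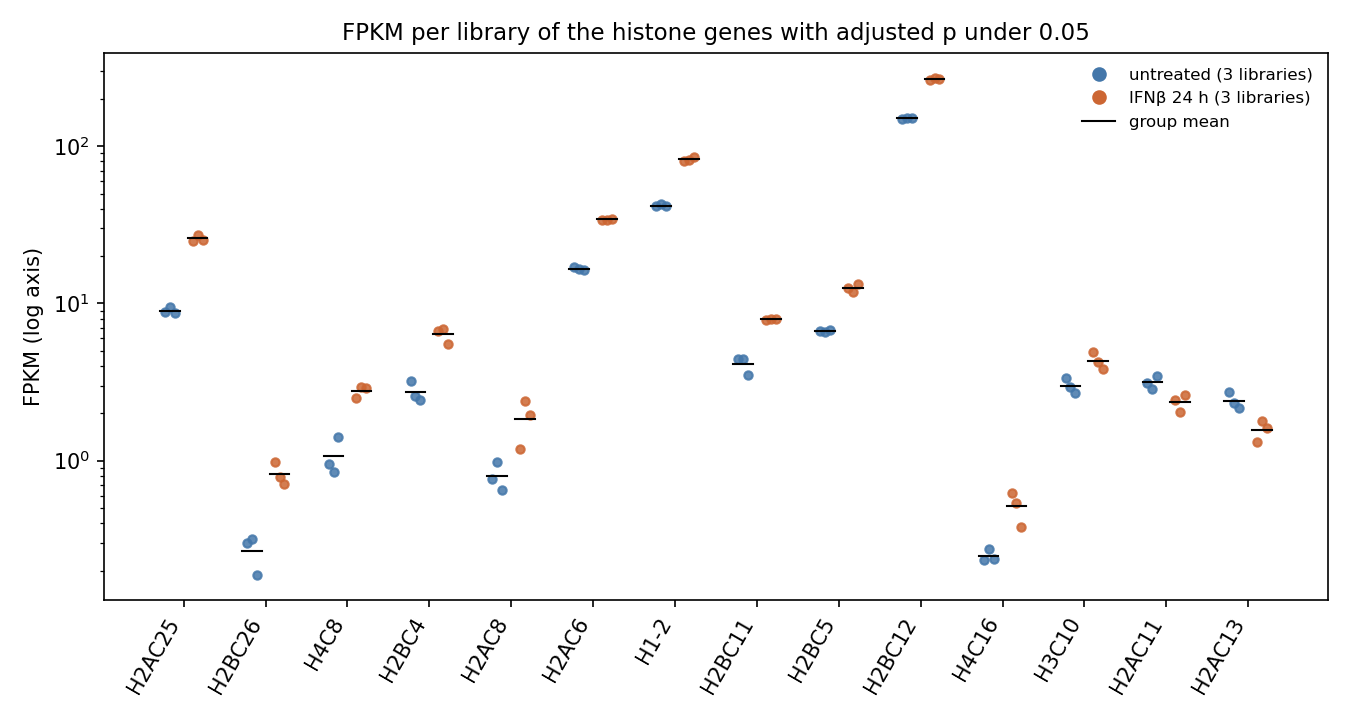
FPKM on a log axis for each of the 14 called histone genes, ordered by fold change, in the 3 untreated (blue) and 3 IFNβ-treated libraries (orange), with the group mean as a line. The libraries of the groups do not overlap for any of them, and H2BC12 lies highest, at 149 to 272 FPKM.

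H3 and H4 mRNAs were low. Of 13 H3 genes 4 were tested, and H3C10 rose, from 3.36, 2.94 and 2.70 FPKM untreated to 4.88, 4.23 and 3.82 FPKM after IFNβ (0.51 ± 0.11, limma adjusted p = 0.016). Without untreated library 2 its adjusted p was 0.050 and the call was lost. H3C3 had 1.71, 1.66 and 2.31 FPKM untreated and 1.94, 2.39 and 2.35 FPKM after IFNβ, which overlap (0.23 ± 0.15, limma adjusted p = 0.30). H3C2 lay lower in all treated libraries, with 1.28, 0.791 and 0.535 FPKM untreated and 0.445, 0.235 and 0.406 FPKM after IFNβ, but on 8.7 fragments per library it was not called (-1.03 ± 0.33, limma adjusted p = 0.059). It was called without untreated library 3 (-1.30, adjusted p = 0.033). The summed FPKM of the H3 genes was 5.996 ± 0.560 untreated and 7.51 ± 0.526 after IFNβ (SD, n = 3 each), a ratio of 1.25, beside 1.96 for H1, 1.99 for H2A, 1.79 for H2B and 1.45 for H4.

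Of 15 H4 genes 8 were tested, with 4 fold changes above 0 and 4 below and a median of 0.14. This median turned to -0.13 without untreated library 3 and was 0.57 without untreated library 2. It was 0.61 among those averaging 1 FPKM or more and 0.001 with a pseudocount of 1. H4C8 had 0.951, 0.841 and 1.42 FPKM untreated and 2.51, 2.94 and 2.91 FPKM after IFNβ, without overlap (1.33 ± 0.19, limma adjusted p = 0.0022). H4C16, the member on chromosome 12 (chr12:14770720-14771131), had 0.232, 0.275 and 0.235 FPKM untreated and 0.622, 0.538 and 0.381 FPKM after IFNβ (0.80 ± 0.21, limma adjusted p = 0.026). It was called with 8 of the 15 alternatives that tested it and lost without any 1 of 5 libraries, all but IFNβ library 3, with adjusted p up to 0.086. H4C9 had 1.32, 1.19 and 1.22 FPKM untreated and 1.15, 1.51 and 0.872 FPKM after IFNβ (-0.11 ± 0.19, limma adjusted p = 0.72). H4C3 had 0.324, 0.832 and 0.6001 FPKM untreated and 0.802, 0.593 and 1.20 FPKM after IFNβ (0.52 ± 0.35, limma adjusted p = 0.33). Both overlapped between the groups. H4C15 shares 97.0% of its stretches of 150 bases with H4C14, which shares 92.2% of its own, and most such reads cannot keep these 2 genes apart.

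By position, 54 members lie in the large cluster on chromosome 6 (chr6:25726063-27893891), and of the 30 tested there 9 rose and 2 fell. The median fold change there was 0.48, with 0.86 among those averaging 1 FPKM or more and 0.35 with no filter. Its first block, chr6:25726063-26285534, held 33 members, 19 tested and 6 called, all higher, with a median of 0.52 and summed FPKM of 76.6 ± 1.31 untreated and 148.0 ± 4.09 after IFNβ (SD, n = 3 each). The block at chr6:27132316-27147562 held 5 members, all tested, of which 2 rose (H2BC11 and H2BC12) and 1 fell (H2AC11). The block at chr6:27807479-27893891 held 16 members, 6 tested, of which H3C10 rose and H2AC13 fell. In the cluster at chr1:149782689-149887965, 5 of 11 members were tested and none was called by limma at an adjusted p under 0.05, with a median of 0.33. At an unadjusted p under 0.05 there were 2, H2AC18 and H2BC21, both higher, and H2BC21 was called by limma-voom and by limma among genes averaging 1 FPKM or more (limma adjusted p = 0.043). H2AC18 had a fold change of 1.01 ± 0.34 (limma adjusted p = 0.064) on 2.8 fragments per library. It passed the filter through its IFNβ values, with a mean of 0.0948 FPKM untreated and 0.291 FPKM after IFNβ, so its direction carries no weight. Both members of the small cluster on chromosome 1 were DEGs, with a summed FPKM of 9.28 ± 0.468 untreated and 26.7 ± 1.08 after IFNβ (SD, n = 3 each). The difference between clusters was not tested.

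**Figure D3:**
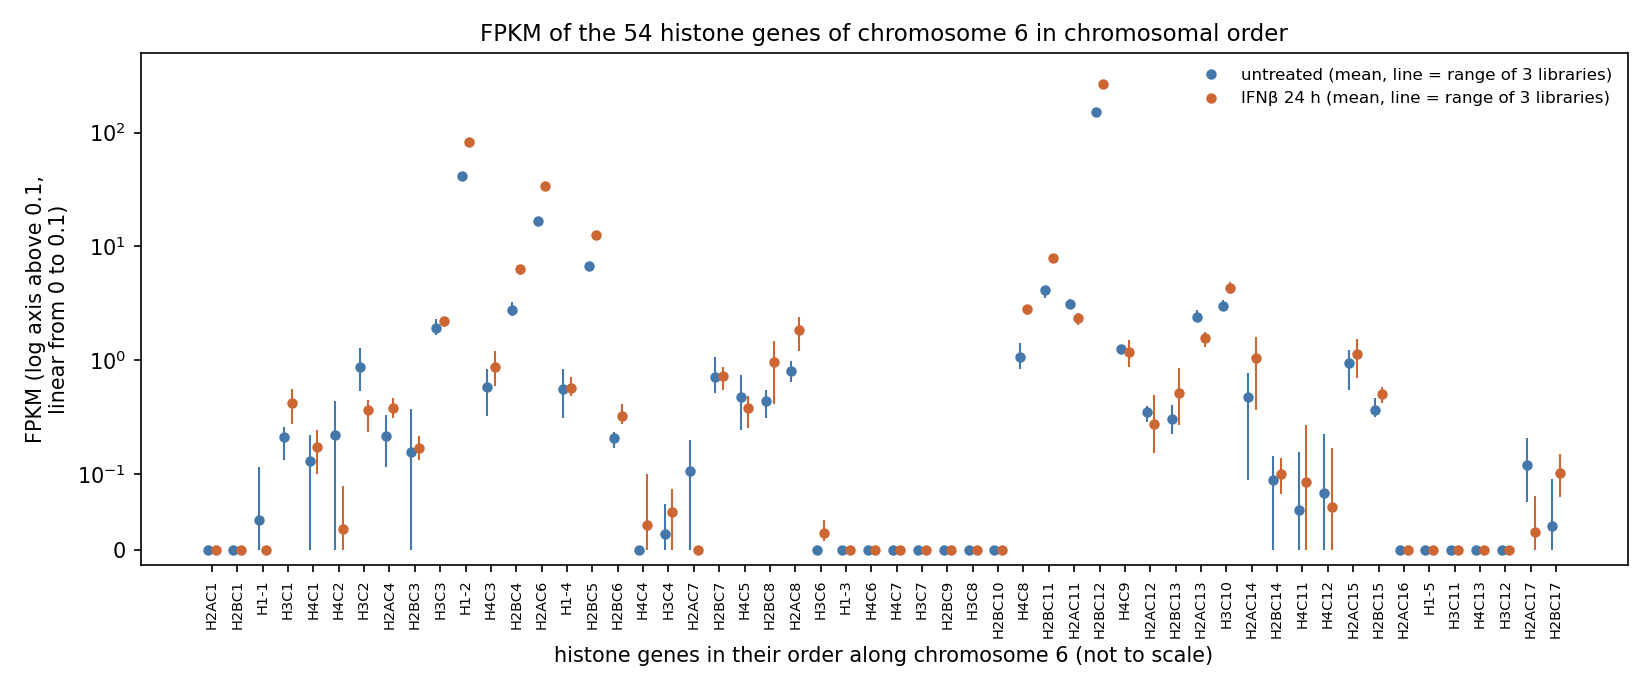
FPKM (y axis, log above 0.1 and linear below) of the 54 members on chromosome 6 in their order along the chromosome (x axis, not to scale), as the mean of 3 libraries with their range, untreated in blue and IFNβ in orange. Runs of 7 and 5 neighbouring genes lie at 0 in all libraries, and the high genes H1-2, H2AC6, H2BC5, H2BC11 and H2BC12 stand among low ones.

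Most H2A and H2B genes stand head to head with a gene of the other type and share the DNA between their start sites. There were 14 neighbouring pairs on opposite strands with start sites 194 to 979 bases apart, of which 12 joined an H2A with an H2B gene, and both genes were tested in 8. In 2 pairs both genes rose, H2AC25 with H2BC26 and H2BC4 with H2AC6. In 3 pairs the fold changes had opposite signs: H2BC11 rose while H2AC11 fell, H2BC12 rose while H2AC12 had 0.352 ± 0.0577 FPKM untreated and 0.275 ± 0.193 FPKM after IFNβ (SD, n = 3 each, not called), and H2AC13 fell while H2BC13 had 0.307 ± 0.0910 and 0.514 ± 0.298 FPKM (SD, n = 3 each, not called). All 12 tested H2B genes had positive fold changes, so the H2B gene was bound to be the positive one in these 3. H2AC12 and H2BC13 averaged 4.2 and 5.3 fragments per library, so the signs within their pairs carry little weight. In the pair of H2BC8 and H2AC8, both positive, H2AC8 alone was called, and in the remaining pairs, H2BC21 with H2AC20 and H2AC15 with H2BC15, neither was. The calls of H2AC11 and H2AC8 each depend on 4 libraries, as given with their values.

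The shared promoters of pairs that moved together and apart, and that of H1-2, are printed from RefSeq (GRCh38.p14) as the 250 bases before and 50 bases after the start site of the named gene, 5′ to 3′ on its strand. Capitals mark matches, on either strand, to the CCAAT box, to the TATA box in its form TATAAA, to the octamer ATGCAAAT, to the core of the interferon-stimulated response element (a pair of GAAA with any 2 bases between them), to TTCNNNGAA (the core of the interferon-gamma-activated site) and to TTTCGCGC (an E2F-type site), where N is any base. Matches to different motifs, or to both strands of TATAAA, may overlap.
H2AC25, which rose with H2BC26 (chr1:228457824-228458123, minus strand): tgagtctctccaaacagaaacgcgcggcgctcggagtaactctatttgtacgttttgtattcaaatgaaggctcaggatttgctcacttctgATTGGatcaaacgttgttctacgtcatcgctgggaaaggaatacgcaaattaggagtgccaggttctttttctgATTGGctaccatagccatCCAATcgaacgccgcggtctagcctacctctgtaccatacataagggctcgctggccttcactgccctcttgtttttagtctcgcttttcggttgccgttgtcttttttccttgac
H2BC4, which rose with H2AC6 (chr6:26123877-26124176, minus strand): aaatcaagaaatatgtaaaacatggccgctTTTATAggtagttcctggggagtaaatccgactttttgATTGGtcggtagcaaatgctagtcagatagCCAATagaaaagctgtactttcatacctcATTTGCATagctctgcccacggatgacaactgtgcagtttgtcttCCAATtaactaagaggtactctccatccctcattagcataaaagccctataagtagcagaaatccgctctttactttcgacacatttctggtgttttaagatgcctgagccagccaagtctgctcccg
H2BC11, which rose while H2AC11 fell (chr6:27132746-27133045, minus strand): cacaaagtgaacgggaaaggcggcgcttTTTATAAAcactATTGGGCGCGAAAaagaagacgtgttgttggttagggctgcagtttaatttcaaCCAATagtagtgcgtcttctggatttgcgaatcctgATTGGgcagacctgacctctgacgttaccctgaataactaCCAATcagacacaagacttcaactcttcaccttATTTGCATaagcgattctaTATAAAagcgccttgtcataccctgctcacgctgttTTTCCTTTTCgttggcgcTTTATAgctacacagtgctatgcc
H2BC12, the highest member (chr6:27146809-27147108, minus strand): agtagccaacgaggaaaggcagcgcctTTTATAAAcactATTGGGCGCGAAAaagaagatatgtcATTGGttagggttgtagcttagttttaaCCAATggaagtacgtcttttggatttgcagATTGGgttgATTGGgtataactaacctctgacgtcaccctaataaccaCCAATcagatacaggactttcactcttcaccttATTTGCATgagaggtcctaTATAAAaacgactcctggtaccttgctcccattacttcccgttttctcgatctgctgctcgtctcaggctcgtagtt
H1-2, the highest H1 gene (chr6:26056421-26056720, minus strand): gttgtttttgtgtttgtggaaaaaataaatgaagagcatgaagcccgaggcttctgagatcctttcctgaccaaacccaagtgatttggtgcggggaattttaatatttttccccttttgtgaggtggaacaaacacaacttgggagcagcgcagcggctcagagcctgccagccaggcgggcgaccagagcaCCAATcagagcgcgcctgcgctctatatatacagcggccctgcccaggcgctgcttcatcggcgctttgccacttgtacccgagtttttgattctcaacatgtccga
The windows of H2AC25, H2BC4, H2BC11 and H2BC12 reach the start site of the partner gene. Promoters of 63 members were found among 35116 in the RefSeq table. CCAAT was in 84.1% of members' promoters and 34.6% of all, TATAAA in 68.3% and 11.5%, the octamer in 41.3% and 1.77%, and TTTCGCGC in 19.0% and 0.515%. The interferon-stimulated response element core was in 5 members (H2BC6, H2BC10, H2BC11, H3C10 and H3C13), 7.94% of them against 3.57% of all promoters, and 2 of the 12 genes that rose were among these. TTCNNNGAA was in H1-3 alone, 1.59% against 7.66%. In the windows of H2AC25 and H2BC26, CCAAT was the one motif of the 6 with a match, and in that of H4C8 there was none.

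Members known as background to give polyadenylated mRNA too were looked at as a list of 6: H1-2, H2AC6, H2BC4, H2BC5, H2BC12 and H2BC21. Of these 5 rose, with a median fold change of 0.94, and their summed FPKM went from 220.9 ± 1.23 to 406.5 ± 5.21 (SD, n = 3 each). Among the 62 other members 32 were tested, 7 rose and 2 fell, the median was 0.42, and the summed FPKM went from 36.8 ± 1.18 to 63.4 ± 2.23 (SD, n = 3 each). The list was drawn up with earlier results of these data known and is not independent evidence of its direction.

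The RNAs without an ordinary poly(A) tail that were called were lower after IFNβ. Of 28 listed small and ribosomal RNAs, 16 were listed at 0 in all libraries and 10 were tested, of which 4 fell and none was called higher by limma at an adjusted p under 0.05 (1, RNU5A-1, at an unadjusted p under 0.05, none by limma-voom, and 2 by limma without untreated library 2), with a median fold change of -1.24. MT-RNR1 and MT-RNR2, the mitochondrial rRNAs, which carry short A tails, fell by 1.63 and 1.42 on the log2 scale, and together with the rest of the list summed to 2365 to 2381 FPKM untreated and 838.8 to 860.0 FPKM after IFNβ. RN7SL1, the RNA of the signal recognition particle, had 7.86 ± 1.90 FPKM untreated and 3.32 ± 0.755 FPKM after IFNβ (SD, n = 3 each, limma adjusted p = 0.0084). RMRP, the RNA of a ribonuclease, had 25, 9 and 5 fragments in untreated and 0 in each IFNβ library, at least 4.82-fold lower against a floor of 3 fragments per library. Untreated library 1 carried much of that level, and without it the bound was 2.12-fold. RMRP passed the filter through its untreated values alone, so its place among the 4 falls carries no weight for the direction of the list. The part that the capture of RNA by its tail has in the histone values was not tested.

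Replacement histones changed in both directions: of 11 tested, 4 rose and 6 fell, with a median of -0.12. With eBayes without trend 3 rose and 5 fell. The number that rose was also 3 without untreated library 1 or 3, or without IFNβ library 2 or 3. H2AZ2, a variant H2A, fell as a DEG, from 29.2 ± 0.649 to 14.4 ± 0.0680 FPKM (SD, n = 3 each). CENPA, the H3 of centromeres, fell from 15.4 ± 0.585 to 11.01 ± 0.472 FPKM and H2AJ rose from 3.90 to 5.28 FPKM (limma adjusted p = 0.026). H2AZ1 (-0.26), H2AX (-0.25), the variant of the DNA damage response, and H3-3A (-0.12) fell, and H3-3B rose (0.21), all with limma adjusted p of at most 0.015.

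The genes that transcribe histone genes and process their mRNA were mostly level or lower: of 30 tested, 3 rose (1 without IFNβ library 2) and 14 fell, with a median of -0.12. SLBP, which binds the stem-loop, had 57.6 ± 0.802 FPKM untreated and 51.5 ± 1.16 FPKM after IFNβ (SD, n = 3 each; -0.16 ± 0.02, limma adjusted p = 0.0023). NPAT, the coactivator of histone transcription, had 6.03 ± 0.241 and 5.72 ± 0.318 FPKM (SD, n = 3 each) and was not called (limma adjusted p = 0.34). The largest falls were those of SNRPD3 (-0.83), a shared Sm protein, CCNE1 (-0.56) and CCNE2 (-0.39), the E cyclins that act with CDK2 on NPAT, and SNRPE (-0.33). Of 24 histone chaperones 7 rose and 10 fell, beside the 15.2% and 17.5% of all genes tested, and 4 were called higher without untreated library 3 or without IFNβ library 1. ASF1A (0.50) and HIRA (0.47), a chaperone of H3.3, rose most, and NAP1L1 (-0.34) and SSRP1 (-0.32), a subunit of FACT, fell most.

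DNA replication genes, with which these histone genes are normally expressed, had a median fold change of -0.19, and of 34 tested 5 rose and 23 fell. GINS4 fell from 6.66 ± 0.247 to 3.23 ± 0.144 FPKM, MCM6 from 35.8 ± 0.666 to 24.5 ± 0.211 FPKM and PRIM1 from 13.8 ± 0.651 to 9.69 ± 0.489 FPKM (SD, n = 3 each). The median of the DNA replication genes had the opposite sign to that of the tested histone members (0.51). The difference between the lists was not tested.

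The 22 protein-coding genes among the histone genes of chromosome 6, or within 50 kb of them, were taken as neighbours. Of the 12 tested, 7 rose and 1 fell, with a median of 0.41. TRIM38, near the start of the cluster, rose by 1.96 on the log2 scale, and the butyrophilin genes BTN3A3 (1.74), BTN3A1 (1.55) and BTN3A2 (1.06), between its blocks, rose too, all with limma adjusted p of at most 1.4e-05. These are the 4 DEGs of that list.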

How the data were processed

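RNA of HT1080 cells was sequenced as 2 × 150 base reads after mRNA enrichment. The submitters' processing notes name fastp, HISAT2, StringTie and GRCh38, without versions. Per gene and library, the authors deposited 1 FPKM, without pooling. All 62710 gene rows were used, 20716 of them tested. Whole fragments were recovered for 100% of 35303 genes above 0 (tolerance 0.001), with 99.7% of each library's divisor, and depth limits precision as given with the values. Fragment numbers start from the smallest whole ones that give the FPKM. They were multiplied where a whole gene length, the GENCODE release 29 length or, for members, a short RefSeq length required it. Groups were compared with limma 3.58.1 (R 4.3.3, lmFit and eBayes with trend) on log2(FPKM + 0.1), leaving out genes averaging under 0.1 FPKM. DESeq2, which the study names, was not used, and the recovered fragments were tested with limma-voom as an alternative. Python 3.11.15 was used for the other steps. Symbols came from a table of gene names, locations from RefSeq (GRCh38.p14), and 4 members have IDs outside GENCODE release 29. The fit was tested on simulated data. There were 16 alternatives: limma-voom on recovered fragments, a replicate block, omission of each library, eBayes with no trend, and other pseudocounts, filters and scalings. Values per library are given for the 3 highest members of each type, the 6 known to give polyadenylated mRNA, and the 6 largest called rises and all called falls, and for the lists the 4 largest called changes and 6 fixed genes. Some genes that this rule names are not reported here. H4C16 and RMRP's fragments were added to these after their values were seen. The members and gene lists were chosen with earlier results of these data known. Of the neighbours, H1-6, a histone, was left out.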

Additional observations from a re-analysis of the deposited data

How the results depend on the processing

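Of the 14 called members, 9 (H1-2, H2AC6, H2AC25, H2BC4, H2BC5, H2BC11, H2BC12, H2BC26 and H4C8) kept their direction and their call in every alternative that tested them. The number called higher lay between 10 and 13. The number called lower was 1 with no filter, with eBayes without trend and with the replicate number as a block, 0 with limma-voom on recovered fragments, 3 with quantile normalization, and 1 to 3 with a library left out. Without untreated library 3 these 3 shared 1 gene, H2AC13, with the 2 of the report. The DEGs that rose numbered 1 (H2AC25) with a pseudocount of 1, which shrinks low genes by construction, and the DEGs that fell numbered 1 with quantile normalization (H3C2) and 0 to 2 with a library left out, 2 without untreated library 3 (H3C2 and H4C2). The members' median fold change was 0.20 with a pseudocount of 1, 0.72 with 0.01, 0.37 with no filter, 0.83 when genes under a mean of 1 FPKM were left out, 0.39 with quantile normalization, 0.65 with limma-voom and 0.45 to 0.57 with a library left out. The median of the H4 genes was -0.127 without untreated library 3 and up to 0.572 with another library left out. H1-4 was at -0.047 with quantile normalization and between -0.207 and 0.389 with a library left out, and H4C9 at -0.289 to 0.076. The processing list had 1 gene higher with eBayes without trend and 1 without IFNβ library 2, the chaperones 4 to 6 with a library left out (4 without untreated library 3 and without IFNβ library 1), and the RNAs without a tail 2 without untreated library 2. With a pseudocount of 1 the median was 0.197 for H2A, 0.333 for H2B, 0.195 for H3 and 0.175 for chromosome 6, with 0.01 it was 0.953 for H2A, and with limma-voom 0.914. The ratio of summed FPKM was 1.85 with quantile normalization. Where genes had to average 1 FPKM, the chromosome 12 gene was not tested. The cause of these changes was otherwise not tested.

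Libraries with the same replicate number did not deviate together (correlations of deviations 0.01, 0.02 and 0.03 across genes), so the numbers were not taken as pairs, although each library's highest correlation was with its own number. With the replicate number as a block, 12 members were called, H2AC13 and H4C16 being lost, and 6069 of all genes against 6778. Quantile normalization moved the share of rises among all calls from 46.5% to 39.4%. Members with few fragments limit what could be called: 21 of the 38 tested averaged under 20.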

Other observations

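Of the 15 members listed at 0 in all 6 libraries, 14 stood in 3 runs of neighbours on chromosome 6. H2AC1 and H2BC1, genes of the testis, lie at chr6:25726063-25727345. H1-3, H4C6, H4C7, H3C7, H2BC9, H3C8 and H2BC10 are 7 neighbours at chr6:26234212-26273412 (GRCh38.p14), with H4C8, at 1.07 FPKM in untreated cells, the next member on one side. H2AC16, H1-5, H3C11, H4C13 and H3C12 are 5 neighbours at chr6:27865317-27890826. The table had 1 other gene within these spans, which was listed at 0 too. These zeros did not differ between the groups, and whether they come from the cells or from the making of the table was not tested.

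Members also differed by the length of the gene model behind the FPKM, a split chosen after the values were seen and given without a test. Of 15 tested members with a recovered length over 700 bases, 10 rose, with a median fold change of 0.90 and 1 below 0 at -0.59. Of 23 shorter ones 2 rose and 2 fell, with a median of 0.37, beside 15.2% called higher and 17.5% lower among all genes tested. The length groups also differed in level, with a median untreated FPKM of 2.38 for the longer and 0.477 for the shorter members. H2BC12, the highest member, was recovered at the shorter length, which may be a fraction of the true one.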
